A study of Homo sapiens with 6 samples.

Results

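The 10 genes described here encode proteins that copy, package and transcribe the mitochondrial genome or degrade its RNA: TFAM, TFB2M, POLRMT, POLG, POLG2, TWNK, SSBP1, MGME1, PNPT1 and SUPV3L1. They were chosen by gene symbol from 62260 gene rows, and all 10 were among the 14166 genes with enough fragments to test. Their RNA was measured in TYK-nu, an ovarian cancer cell line by its label, in 3 libraries of cells with a knockout of ZNFX1 (ZNFX1 KO) and 3 libraries of wild-type cells (WT). Cells of both groups grew in the same medium without any drug, and total RNA was sequenced from stranded libraries that carry the same batch label. The labels give neither the edited position in ZNFX1 nor the number of knockout clones. They call the libraries biological replicates without describing separate cultures, so every p-value rests on library-to-library spread, which may in part be technical.

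Human mitochondrial DNA is a small circle that is wrapped by TFAM into nucleoids, transcribed by a dedicated single-subunit RNA polymerase and copied by a replisome distinct from the nuclear one. Long transcripts from both strands are cut into mRNAs, tRNAs and rRNAs, and surplus or antisense RNA is removed by a helicase and exoribonuclease pair. When that removal fails, mitochondrial double-stranded RNA can reach the cytosol and be sensed as if it were viral. ZNFX1, a helicase-like zinc finger protein, is itself known as a sensor of double-stranded RNA found at the mitochondrial outer membrane.

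No change of any of the 10 genes passed the test. TFB2M, which opens the mitochondrial promoter for the polymerase, had the largest difference and was higher in every ZNFX1 KO library than in every WT library, with a log2 fold change of 0.54 (SE 0.16). SSBP1, MGME1 and TFAM were higher on average by 0.36 to 0.42 on the log2 scale, but their groups overlapped, with WT 3 at or near the level of the knockout libraries. POLRMT, POLG, TWNK and PNPT1 had differences between -0.03 and 0.14 on the same scale, and POLG2 and SUPV3L1 were lower on average, at -0.33 and -0.23. With an adjusted p under 0.05 from edgeR's quasi-likelihood test (Benjamini-Hochberg adjustment over all genes tested), 0 of the 10 genes were called, against 103 of all 14166 genes or 0.727%. DESeq2's Wald test also called 0 of the 10, against 4.09% of all genes, and an unadjusted p under 0.05 was reached by 1 of them (TFB2M), against 15.1% of all genes.

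The promoters of 4 genes are printed because their genes cover the contrasts in the results. TFB2M had groups that did not overlap, and TFAM had a difference that passed the test only without WT 3 and shrank without WT 2. POLRMT hardly differed, and PNPT1 is known as an interferon-induced gene. Each promoter is the stretch of 250 bases before the annotated start, read 5′ to 3′ on the gene's strand. The sequences are from RefSeq on GRCh38.p14, where 9 of the 10 genes, all but TWNK, were matched. Capitals mark matches on either strand to GCNTGCGC (the core of the site of NRF1, a nuclear factor that drives respiratory genes), CGGAAG (the core bound by ETS factors such as GABPA) or AANNGAAA (a half-site of interferon regulatory factors), and the motifs were chosen after the promoters had been read.
TFB2M: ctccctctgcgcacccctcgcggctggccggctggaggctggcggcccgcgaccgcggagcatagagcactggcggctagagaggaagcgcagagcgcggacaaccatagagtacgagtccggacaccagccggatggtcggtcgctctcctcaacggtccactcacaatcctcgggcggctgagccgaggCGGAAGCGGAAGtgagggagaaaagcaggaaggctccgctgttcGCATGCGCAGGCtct
TFAM: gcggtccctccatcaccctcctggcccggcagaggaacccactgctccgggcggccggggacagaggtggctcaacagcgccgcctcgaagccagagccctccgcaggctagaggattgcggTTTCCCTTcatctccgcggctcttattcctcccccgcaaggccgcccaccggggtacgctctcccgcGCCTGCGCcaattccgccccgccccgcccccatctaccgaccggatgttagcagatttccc
POLRMT: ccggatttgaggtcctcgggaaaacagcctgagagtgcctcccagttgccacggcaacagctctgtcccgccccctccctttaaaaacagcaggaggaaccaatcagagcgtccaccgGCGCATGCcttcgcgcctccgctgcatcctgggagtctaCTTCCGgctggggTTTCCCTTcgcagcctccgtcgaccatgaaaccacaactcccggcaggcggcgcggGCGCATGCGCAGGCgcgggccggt
PNPT1: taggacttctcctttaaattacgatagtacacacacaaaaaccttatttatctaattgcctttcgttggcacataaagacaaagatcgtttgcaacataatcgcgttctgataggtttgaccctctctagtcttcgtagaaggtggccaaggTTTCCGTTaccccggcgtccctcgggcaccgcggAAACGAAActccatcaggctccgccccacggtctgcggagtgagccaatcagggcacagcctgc
The TFB2M stretch lies at chr1:246566262-246566511 (minus strand), the TFAM stretch at chr10:58385160-58385409 (plus strand), the POLRMT stretch at chr19:633538-633787 (minus strand) and the PNPT1 stretch at chr2:55693845-55694094 (minus strand). RefSeq and GENCODE starts differ, so the TFB2M, TFAM, POLRMT and PNPT1 stretches partly or wholly lie inside the gene bounds given further on. In TFB2M, the first capitals are 2 adjoining ETS cores whose first bases lie at -59 and -53 from the start, and the second capitals are 2 overlapping NRF1 cores at -15 and -11. TFAM holds an NRF1 core at -61 and an IRF half-site at -128. POLRMT holds NRF1 cores at -132, -24, -22 and -18, of which the last 3 overlap, an ETS core at -93 and an IRF half-site at -80. PNPT1 holds IRF half-sites at -98 and -64 and neither of the other motifs. Of the 9 genes with a promoter to search, 4 held the NRF1 core, against 10.4% of 35116 RefSeq promoters of the same length. The ETS core was found in 5 of the 9, against 16.5% of all promoters, and the IRF half-site in 5 of the 9, against 20.3%. SSBP1 has 3 annotated promoters, and a match in any of them was counted for it, while the shares of all promoters count each promoter alone. As the motifs were chosen after the promoters had been read, these shares cannot show an excess in the 9 genes. These matches describe letters only, and binding was not measured.

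ZNFX1 itself was read first as a check of the labels. Its gene row held 103, 70.5 and 75.2 CPM (fragments of the gene row relative to the library's total, scaled between libraries by TMM) in ZNFX1 KO 1 to 3, against 130, 208 and 109 CPM in WT 1 to 3. All knockout libraries were below all wild-type libraries, although KO 1 and WT 3 lay close together. The means were 82.7 ± 17.3 CPM in ZNFX1 KO and 149 ± 52.2 CPM in WT (SD, n = 3 each), a log2 fold change of -0.85 (SE 0.27, adjusted p = 0.218 by edgeR's quasi-likelihood test). Leaving out WT 3 gave -1.01 with an adjusted p of 0.0468, and leaving out WT 2 gave -0.53 with 0.506. RNA of the gene remained in every library labelled ZNFX1 KO, and a library's place in its group rests on its label.

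The libraries held between 21413002 and 23494771 assigned fragments each, and they did not vary in the same way. Summed over 25 interferon-stimulated genes, WT 2 stood apart at 4260 CPM, against 846 to 1429 CPM in the ZNFX1 KO libraries and 1202 to 1519 CPM in WT 3 and WT 1. ZNFX1 was also highest in WT 2, and whether its level went with these genes, apart from the knockout, was not tested. Summed over 18 cell division genes, the ZNFX1 KO libraries held 3475 to 3641 CPM and WT 3 a like 3535 CPM, but WT 1 had 2153 and WT 2 had 1036 CPM. KO 2 was highest in mitochondrially encoded mRNA, as given further on. The 22 tested interferon-stimulated genes had a median log2 fold change of -1.17 and the 18 cell division genes one of 0.70, and edgeR's quasi-likelihood test called 0 of either list. DESeq2's Wald test called 2 and 1 of them, and 12 and 1 had an unadjusted p under 0.05 in edgeR. Over all genes tested, edgeR called 0.727% and DESeq2 4.09%, and 15.1% had an unadjusted p under 0.05 in edgeR. The labelled cell type was checked against markers, and several that define ovarian epithelium were at or near 0. The 12 epithelial and ovarian markers summed to 139 to 214 CPM in ZNFX1 KO and 129 to 142 CPM in WT, of which 4 were tested. MUC16 and CLDN3 had 0 fragments in every library, which allows up to 0.137 to 0.156 CPM, and PAX8, CDH1, KRT7 and MSLN had at most 0.104 CPM. EPCAM had 0 fragments in ZNFX1 KO, against 0.228 to 1.72 CPM in WT. The keratins present did not move together: KRT18 was at 121 to 186 CPM in ZNFX1 KO and 82.9 to 118 CPM in WT, KRT8 averaged 14.7 ± 4.72 CPM in ZNFX1 KO and 24.4 ± 12.9 CPM in WT, and KRT19 averaged 0.692 ± 0.728 CPM in ZNFX1 KO and 1.79 ± 0.0748 CPM in WT (SD, n = 3 each). WT1, a transcription factor of ovarian serous tumours, was at 4.49 to 6.55 CPM in ZNFX1 KO and 3.74 to 6.98 CPM in WT. All 7 endothelial markers were detected in each library, with a sum of 1667 to 1822 CPM in ZNFX1 KO and 1490 to 1772 CPM in WT. Among them CDH5, which encodes VE-cadherin, was at 441 to 606 CPM in ZNFX1 KO and 438 to 518 CPM in WT. Of the 7 mesenchymal markers, VIM was at 3183 to 5382 CPM in ZNFX1 KO and 3064 to 5147 CPM in WT. ZEB1 was at 212 to 291 CPM in ZNFX1 KO and 222 to 307 CPM in WT, and FN1, ZEB2 and TWIST1 were also detected in each library. CDH2 and SNAI2 had 0 fragments in every library. For a line labelled as ovarian cancer, most markers of ovarian epithelium were thus at or near 0. Those of endothelium and part of the mesenchymal ones were present, and the identity of the line was not tested. Among the leukocyte markers, PTPRC had 0 fragments, while CD68, a lysosomal protein, was at 170 to 273 CPM in ZNFX1 KO and 210 to 477 CPM in WT, and LYZ at 2.92 to 8.16 CPM in ZNFX1 KO and 0.460 to 2.83 CPM in WT. Whether any of these levels bear on the mitochondrial genes was not tested, and in bulk RNA fewer cells of a kind and less RNA per cell cannot be told apart.

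The promoter recognition and transcription genes come first. TFB2M (ENSG00000162851.8, chromosome 1, 246540560 to 246566324, minus strand, in GENCODE 29 on GRCh38 as for the other genes) had 38.6, 46.2 and 45.4 CPM in ZNFX1 KO 1 to 3, against 30.3, 27.8 and 31.2 CPM in WT 1 to 3. The lowest knockout library was above the highest wild-type library, and unlike the other genes with higher means, WT 3 was not close to the knockout level. The means were 43.4 ± 4.15 CPM in ZNFX1 KO and 29.8 ± 1.80 CPM in WT (SD, n = 3 each), a 1.46-fold difference with an adjusted p of 0.193 in edgeR's quasi-likelihood test. The log2 fold change stayed between 0.48 and 0.62 over 18 other ways of processing, and the adjusted p between 0.0667 and 0.531, so that no setting called it. A difference above 0.54 in size was seen in 22.9% of all genes tested. In TPM (a scale that divides by transcript length and sets each library to the same total, without TMM), the groups overlapped by a narrow margin. The ZNFX1 KO libraries had 14.2, 20.7 and 17.8 TPM and the WT libraries 10.9, 10.1 and 14.5 TPM. The length of TFB2M was 1784 bases in every library, so the scales differed here in how libraries were scaled. Of the 10 genes, TFB2M was the single one with all knockout libraries above all wild-type libraries in CPM, against 9.39% of all genes tested.

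TFAM (ENSG00000108064.11, chromosome 10, 58385022 to 58399221, plus strand) encodes the protein that coats mitochondrial DNA and bends the promoter for transcription. It had 75.9, 76.5 and 72.6 CPM in ZNFX1 KO 1 to 3, against 49.7, 41.6 and 83.6 CPM in WT 1 to 3. The knockout libraries lay within a few CPM of each other, and WT 3 was the highest library of all. The means were 75.0 ± 2.09 CPM in ZNFX1 KO and 58.3 ± 22.3 CPM in WT (SD, n = 3 each), with a log2 fold change of 0.36 (SE 0.25, adjusted p = 0.512 by edgeR's quasi-likelihood test). Leaving out WT 3 gave a log2 fold change of 0.74 with an adjusted p of 0.0378 in the same test, and leaving out WT 2 gave 0.17 with 0.901.

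POLRMT (ENSG00000099821.14, chromosome 19, 617224 to 633604, minus strand) encodes the mitochondrial RNA polymerase, which also makes primers for replication. It had 54.7, 33.9 and 50.7 CPM in ZNFX1 KO 1 to 3, against 48.1, 49.2 and 44.9 CPM in WT 1 to 3. KO 2 was the lowest library and the other knockout libraries were the highest, so the spread lay inside the knockout group. The means were 46.4 ± 11.0 CPM in ZNFX1 KO and 47.4 ± 2.26 CPM in WT (SD, n = 3 each), and the log2 fold change was -0.03 (SE 0.20, adjusted p = 0.957 by edgeR's quasi-likelihood test). Its sign was not stable: without KO 2 the log2 fold change was 0.17.

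**Figure D1:**
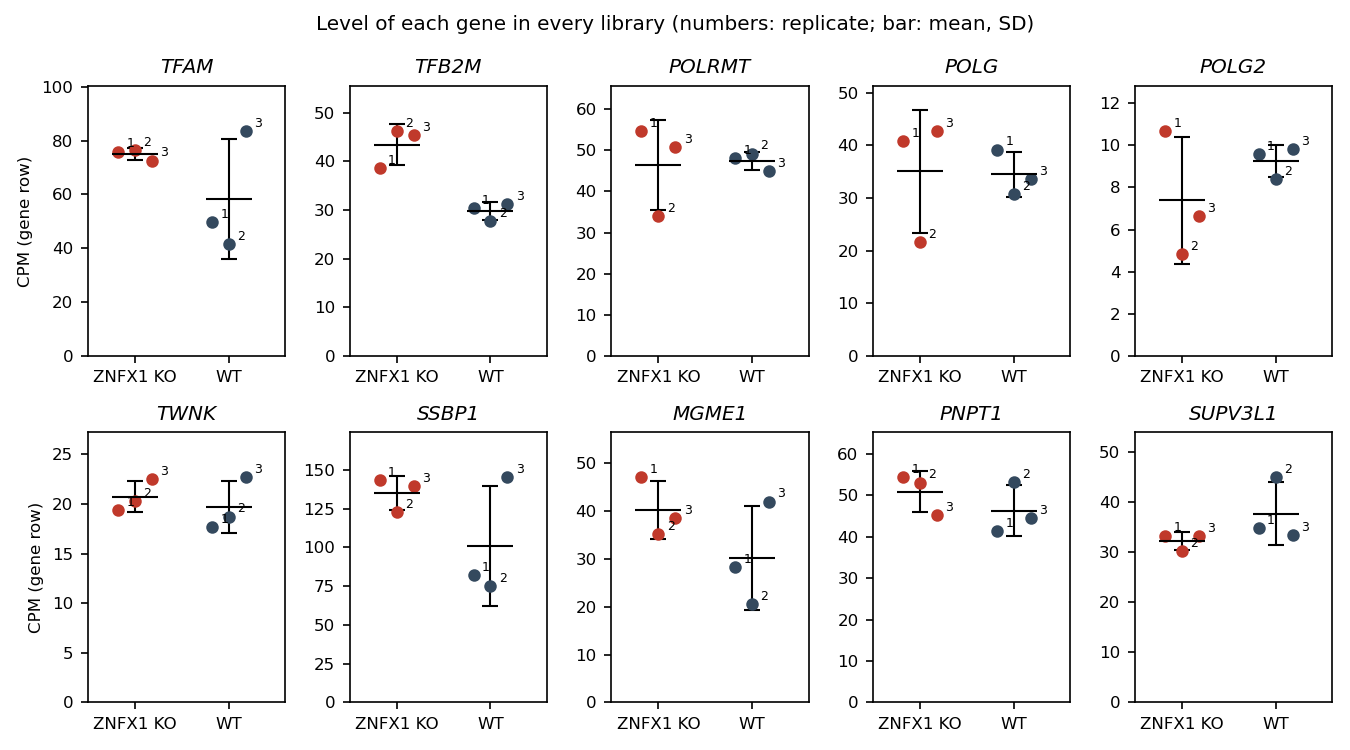
Level of each of the 10 genes in CPM of its gene row (vertical axes, from 0) in the 3 ZNFX1 KO libraries (left) and the 3 WT libraries (right), with points for libraries and the mean and SD beside them. TFB2M is higher in every knockout library, while for TFAM, SSBP1 and MGME1 the library WT 3 lies among or above the knockout libraries.

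The genes of the replication machinery differed among themselves. SSBP1 (ENSG00000106028.11, chromosome 7, 141738321 to 141787922, plus strand) encodes the single-stranded DNA-binding protein of mitochondria. It had 143, 123 and 140 CPM in ZNFX1 KO 1 to 3, against 82.1, 75.0 and 145 CPM in WT 1 to 3. As for TFAM, WT 3 was the highest library of all, and WT 1 and WT 2 were below every knockout library. The means were 135 ± 11.0 CPM in ZNFX1 KO and 101 ± 38.6 CPM in WT (SD, n = 3 each), with a log2 fold change of 0.42 (SE 0.26, adjusted p = 0.456 by edgeR's quasi-likelihood test). Leaving out WT 3 gave a log2 fold change of 0.80 with an adjusted p of 0.0318 in the same test, and leaving out WT 2 gave 0.25 with 0.853.

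MGME1 (ENSG00000125871.14, chromosome 20, 17968913 to 17991122, plus strand) encodes an exonuclease that trims the ends of newly made mitochondrial DNA. It had 47.0, 35.1 and 38.5 CPM in ZNFX1 KO 1 to 3, against 28.3, 20.5 and 42.0 CPM in WT 1 to 3. WT 3 again lay among the knockout libraries, here below KO 1. The means were 40.2 ± 6.13 CPM in ZNFX1 KO and 30.3 ± 10.9 CPM in WT (SD, n = 3 each), with a log2 fold change of 0.41 (SE 0.27, adjusted p = 0.482 by edgeR's quasi-likelihood test). Without WT 3 it was 0.74 with an adjusted p of 0.0708, which did not pass. TFAM and SSBP1 were the 2 of the 10 genes called without WT 3, a setting in which 9.02% of all genes tested were called.

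TWNK (ENSG00000107815.10, chromosome 10, 100987367 to 100994401, plus strand) encodes Twinkle, the helicase that unwinds mitochondrial DNA ahead of the polymerase. It had 19.4, 20.3 and 22.5 CPM in ZNFX1 KO 1 to 3, against 17.7, 18.7 and 22.7 CPM in WT 1 to 3. The groups overlapped and the whole range spanned a ratio of 1.28, the smallest of the 10 genes. The means were 20.7 ± 1.57 CPM in ZNFX1 KO and 19.7 ± 2.63 CPM in WT (SD, n = 3 each), with a log2 fold change of 0.07 (SE 0.18, adjusted p = 0.862 by edgeR's quasi-likelihood test).

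POLG (ENSG00000140521.18, chromosome 15, 89305198 to 89334861, minus strand) encodes the catalytic subunit of the mitochondrial DNA polymerase. It had 40.9, 21.6 and 42.7 CPM in ZNFX1 KO 1 to 3, against 39.2, 30.7 and 33.5 CPM in WT 1 to 3. KO 2 was the lowest library and the other knockout libraries the highest, the same arrangement as for POLRMT. The means were 35.1 ± 11.7 CPM in ZNFX1 KO and 34.5 ± 4.31 CPM in WT (SD, n = 3 each), and the log2 fold change was 0.03 (SE 0.26, adjusted p = 0.973 by edgeR's quasi-likelihood test). Its sign turned under 6 of the 18 other settings. POLG overlaps FANCI, a DNA repair gene on the opposite strand, over 12064 bases, and whether the counting used strand is not given in the sources used here. Before any scaling, FANCI had 2271, 2192 and 2131 fragments in ZNFX1 KO 1 to 3, against 1677, 843 and 2301 in WT 1 to 3, and a part of FANCI in the POLG values was not tested.

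POLG2 (ENSG00000256525.8, chromosome 17, 64477785 to 64497036, minus strand) encodes the accessory subunit that holds the polymerase on its template. It had 10.7, 4.84 and 6.62 CPM in ZNFX1 KO 1 to 3, against 9.60, 8.40 and 9.80 CPM in WT 1 to 3. KO 2 and KO 3 were below every wild-type library, but KO 1 was the highest of all. The means were 7.38 ± 2.99 CPM in ZNFX1 KO and 9.27 ± 0.760 CPM in WT (SD, n = 3 each), with a log2 fold change of -0.33 (SE 0.30, adjusted p = 0.611 by edgeR's quasi-likelihood test). Without KO 2 it was -0.08 and without KO 1 it was -0.69, the widest range of the 10 genes when single libraries were left out. It is also the gene with the fewest fragments, between 95.8 and 219 in its row. The overlaps of TWNK with MRPL43 and of MGME1 with SNX5 are short, at 149 and 68 bases. MGME1 also overlaps OVOL2 on the opposite strand over 22210 bases, but OVOL2 had 0 fragments in every library. The longest overlap of SSBP1 is with TAS2R4, on the same strand over 2378 bases. TAS2R4 had 13.2 to 28.0 fragments before any scaling.

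**Figure D2:**
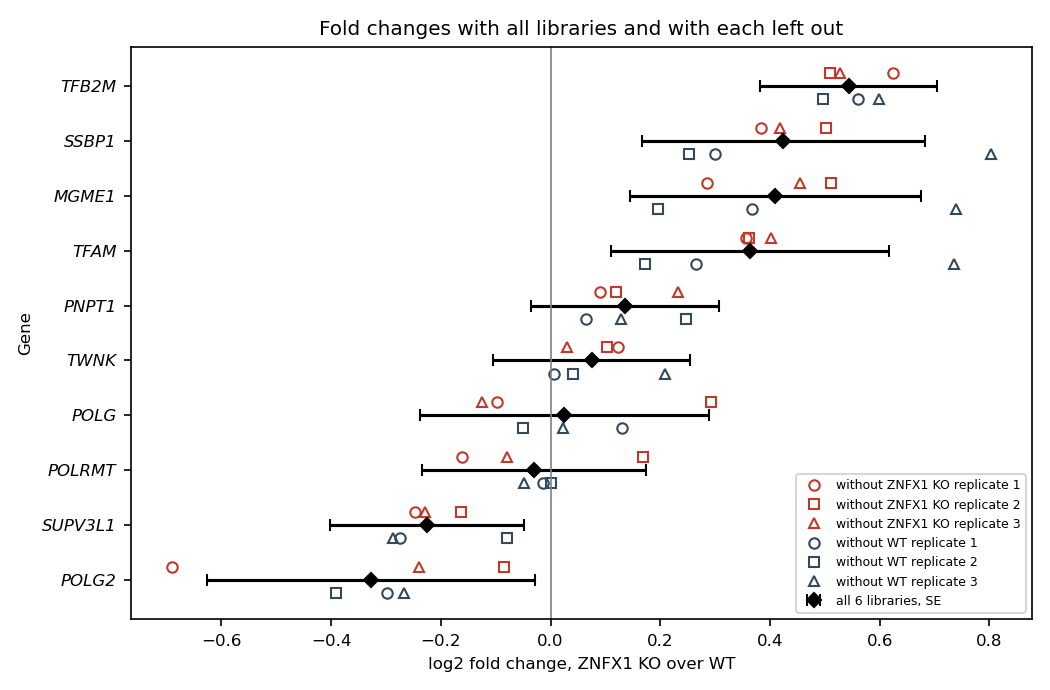
Log2 fold change of each of the 10 genes, ZNFX1 KO over WT (horizontal axis), with all libraries and its standard error, and with each library left out in turn. TFB2M stays between 0.50 and 0.62, while TFAM spans 0.17 to 0.74 and POLG2 spans -0.69 to -0.08.

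PNPT1 and SUPV3L1 encode the exoribonuclease (polynucleotide phosphorylase) and the helicase of the complex that degrades mitochondrial RNA. PNPT1 (ENSG00000138035.15, chromosome 2, 55634265 to 55693910, minus strand) had 54.3, 53.1 and 45.3 CPM in ZNFX1 KO 1 to 3, against 41.4, 53.1 and 44.5 CPM in WT 1 to 3. The groups overlapped, with WT 2 level with KO 2. The means were 50.9 ± 4.91 CPM in ZNFX1 KO and 46.3 ± 6.08 CPM in WT (SD, n = 3 each), with a log2 fold change of 0.14 (SE 0.17, adjusted p = 0.721 by edgeR's quasi-likelihood test). In WT 2, where the interferon-stimulated genes summed highest at 4260 CPM, PNPT1 was higher than in WT 1 and WT 3. By this gene row, KO 1 and KO 2 had PNPT1 above and level with WT 2, at interferon sums of 1429 and 865 CPM. A link between PNPT1 and these sums was not tested.

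The gene row, however, held the smaller share of PNPT1's fragments. The deposited files list many transcripts as rows of their own, outside any gene row, and joined by the GENCODE 29 annotation these made the PNPT1 gene row 23.5% to 30.1% of the gene, the lowest share of the 10 genes. CPM of transcript rows and joined rows is relative to a library's joined fragments and, unlike gene-row CPM, was not scaled by TMM. A single transcript, PNPT1-202, annotated as a target of nonsense-mediated decay, had 124, 105 and 108 CPM in ZNFX1 KO 1 to 3, against 87.0, 144 and 130 CPM in WT 1 to 3. It carried 67.0% to 72.3% of the gene in the 6 libraries, and its groups overlapped. With all rows joined, PNPT1 had 184, 155 and 155 CPM in ZNFX1 KO 1 to 3, against 130, 204 and 180 CPM in WT 1 to 3. The highest library was then WT 2, where the interferon-stimulated genes summed highest, and the lowest was WT 1. Unlike in the gene row, KO 1 and KO 2 were both below WT 2. Without TMM scaling, the joined means were 165 ± 17.0 CPM in ZNFX1 KO and 171 ± 37.8 CPM in WT (SD, n = 3 each). In the fit of joined rows, which applied TMM, the log2 fold change was 0.02 (SE 0.19, adjusted p = 0.968 by edgeR's quasi-likelihood test).

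SUPV3L1 (ENSG00000156502.14, chromosome 10, 69180232 to 69209099, plus strand) had 33.3, 30.2 and 33.3 CPM in ZNFX1 KO 1 to 3, against 34.9, 45.0 and 33.4 CPM in WT 1 to 3. The groups did not overlap in CPM, but KO 1 and WT 3 were nearly equal, and in TPM they overlapped. The means were 32.3 ± 1.80 CPM in ZNFX1 KO and 37.7 ± 6.30 CPM in WT (SD, n = 3 each), with a log2 fold change of -0.23 (SE 0.18, adjusted p = 0.557 by edgeR's quasi-likelihood test). Without WT 2, the highest library, it was -0.08. It was the single gene of the 10 with all knockout libraries below all wild-type libraries in CPM, against 10.8% of all genes tested. The gene row held 81.8%, 83.2% and 86.9% of SUPV3L1's joined fragments in ZNFX1 KO 1 to 3, against 88.3%, 92.6% and 91.5% in WT 1 to 3. Every knockout share was below every wild-type share, and p was 0.1 in an exact permutation test (two-sided), which cannot go lower with 3 libraries in each group, and 0.72 after Benjamini-Hochberg adjustment over 9 genes. With all rows joined, the log2 fold change of SUPV3L1 was -0.10 (SE 0.17, adjusted p = 0.782 by edgeR's quasi-likelihood test), and its groups overlapped. Of the other genes, POLG had the lowest gene-row share, 42.7% in KO 2, followed by POLG2 with 54.5% in the same library, and TFB2M had 100% in every library.

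**Figure D3:**
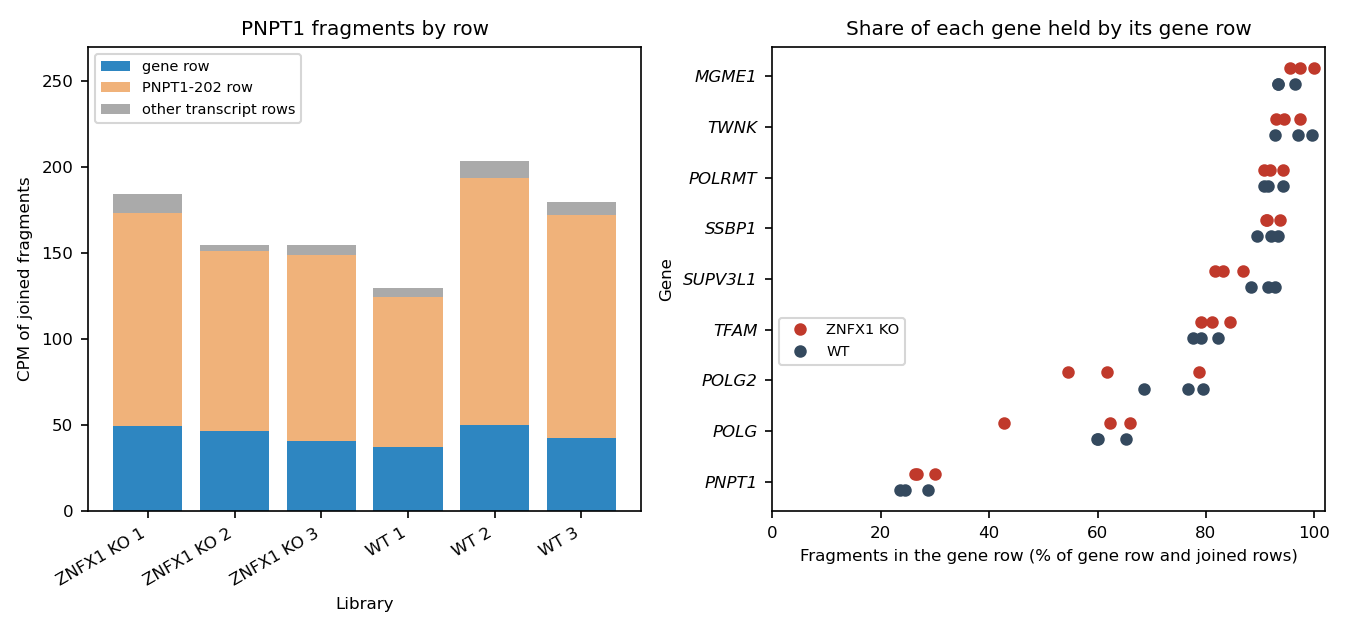
Left, PNPT1 fragments in CPM of joined fragments without TMM scaling (vertical axis) in each library, divided into the gene row, PNPT1-202 and other joined transcript rows. Right, percent of each gene's joined fragments that its gene row held (horizontal axis) in ZNFX1 KO and WT libraries. PNPT1 lies lowest at 23.5% to 30.1%, and SUPV3L1 has shares that do not overlap between the groups.

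Levels could be compared between the genes in TPM. SSBP1 was the most abundant at 172 ± 4.10 TPM in ZNFX1 KO and 131 ± 72.8 TPM in WT (SD, n = 3 each), and it lay above all other genes in every library. TFAM and TFB2M followed at 18.1 ± 2.0 and 17.6 ± 3.27 TPM in ZNFX1 KO, against 15.4 ± 7.53 and 11.8 ± 2.38 TPM in WT, and they overlapped each other in both groups. MGME1, SUPV3L1, POLRMT and PNPT1 formed the middle with means of 12.8, 9.07, 8.26 and 7.58 TPM in ZNFX1 KO, against 9.86, 10.4, 8.38 and 6.75 TPM in WT. In WT, SUPV3L1 thus stood above MGME1, but these neighbours did not differ there beyond their spread. POLG, TWNK and POLG2 were lowest, at 5.10, 4.90 and 3.31 TPM in ZNFX1 KO and 5.01, 4.23 and 4.21 TPM in WT, and neighbouring genes among them overlapped in both groups. The PNPT1 and POLG places rest on their gene rows and leave the transcript rows out.

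Set side by side, the 10 genes had a median log2 fold change of 0.11, against -0.01 over all genes tested, and 7 of the 10 had a positive sign, against 48.8% of all genes. Groups did not overlap in CPM for 2 of the 10, TFB2M and SUPV3L1, against 20.2% of all genes. The log2-CPM of the 10 genes relative to the mean of the 6 libraries had a median of 0.23, 0.03 and 0.16 in ZNFX1 KO 1 to 3, against -0.21, -0.12 and 0.08 in WT 1 to 3. WT 3 thus lay between KO 2 and KO 3. In TFAM, SSBP1 and MGME1, WT 2 was the lowest library and WT 1 the next, as in the summed cell division genes. A part of cell division in these differences was not tested.

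**Figure D4:**
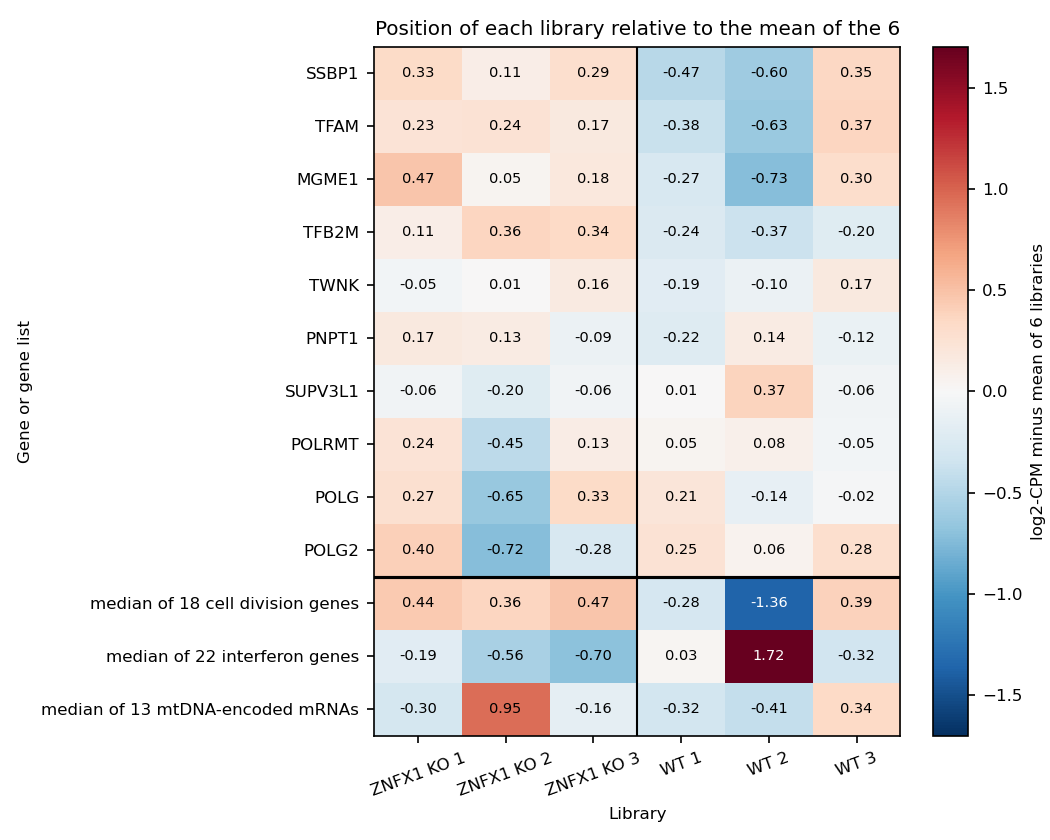
Position of each of the 6 libraries (horizontal axis, ZNFX1 KO left of WT) relative to the mean of all 6, in log2-CPM, for each of the 10 genes and as the median of gene lists (vertical axis). KO 2 is low for POLRMT, POLG and POLG2, and WT 1 and WT 2 are low for TFAM, SSBP1 and MGME1, where WT 3 is high.

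As a description, the genes most like TFAM and PNPT1 were looked up by Pearson's r of log2-CPM over the 6 libraries, among 7425 abundant protein-coding genes. KHSRP, SFXN1, HSPE1, ATR and CAND1 were most like TFAM, and 850 of the 7425 genes had an r above 0.9 with it. For PNPT1 the 5 were CCDC50, ACVR2B, NTAQ1, KRIT1 and ZNF320, with r between 0.92 and 0.97, and 8 genes had an r above 0.9. All of these values share the same libraries and their depth.

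The wider machinery was read from 6 lists with 58 genes, of which 54 were tested. Of these 54, edgeR's quasi-likelihood test called 0, DESeq2's Wald test called 0, and 6 had an unadjusted p under 0.05 in edgeR. Over all genes tested, the shares were 0.727%, 4.09% and 15.1% in the same order. The median log2 fold change was 0.07, with 31 positive and 23 negative. Both depended on single libraries: without WT 2 the median was -0.01 with 25 positive, without WT 3 it was 0.20 with 35 positive, and without KO 1 it was 0.02 with 28 positive. Library totals in place of TMM gave a median of 0.01 with 29 positive. Among the 9 partners in DNA replication and repair, 5 were positive and 4 negative, with a median of 0.07. FEN1, a flap endonuclease of nuclear and mitochondrial replication, was highest at 70.7, 64.1 and 78.1 CPM in ZNFX1 KO 1 to 3, against 20.5, 12.0 and 73.1 CPM in WT 1 to 3. WT 3 again lay with the knockout libraries, and the log2 fold change was 1.01 (SE 0.56, adjusted p = 0.418 by edgeR's quasi-likelihood test). TOP1MT, the mitochondrial type I topoisomerase, was lowest at -0.44 (SE 0.20) with overlapping groups.

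Among the 7 partners in transcription, 5 were positive and 2 negative, with a median of 0.15. MRPL12, a ribosomal protein that also binds POLRMT, had 15.6, 17.2 and 19.0 CPM in ZNFX1 KO 1 to 3, against 12.1, 10.5 and 15.0 CPM in WT 1 to 3. Every knockout library was higher, with a log2 fold change of 0.47 (SE 0.20, adjusted p = 0.326 by edgeR's quasi-likelihood test). MTERF2, a member of the termination factor family, had 7.43, 6.96 and 5.42 CPM in ZNFX1 KO 1 to 3, against 8.22, 9.46 and 9.94 CPM in WT 1 to 3. Every knockout library was lower, with a log2 fold change of -0.48 (SE 0.22, adjusted p = 0.352 by the same test).

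Of 16 genes of RNA processing and stability, 12 were positive and 4 negative, with a median of 0.18. FASTKD3, of the FASTK family of mitochondrial RNA-binding proteins, was highest at 0.60 (SE 0.35). GRSF1, an RNA granule protein that assists the degradation of antisense RNA by the PNPT1 and SUPV3L1 complex, was lowest: it had 7.52, 17.2 and 9.91 CPM in ZNFX1 KO 1 to 3, against 19.4, 16.7 and 21.8 CPM in WT 1 to 3. KO 2 lay above WT 2, and the log2 fold change was -0.74 (SE 0.30, adjusted p = 0.307 by edgeR's quasi-likelihood test).

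Nucleotide supply had 9 tested genes of 12, with 3 positive, 6 negative and a median of -0.28. SUCLA2, a succinyl-CoA ligase subunit, was highest at 0.43 (SE 0.34), and TK2, the mitochondrial thymidine kinase, was lowest at -0.60 (SE 0.26), both with overlapping groups. Of the 7 genes of nucleoid and matrix quality control, 2 were positive and 5 negative, with a median of -0.18, between 0.31 for OPA1 (inner membrane fusion) and -0.39 for ATAD3B. Of the 7 nuclear regulators, PPARGC1A, the coactivator PGC-1α, had 0 fragments in every library, and the other 6 had a median of 0.09 with 4 positive and 2 negative. GABPA, whose ETS core was searched for above, was highest at 0.25 (SE 0.19), and NRF1 stood at 12.1 ± 0.571 CPM in ZNFX1 KO and 11.3 ± 3.60 CPM in WT (SD, n = 3 each). ESRRA, a nuclear receptor that drives respiratory genes, was lowest, at 32.0, 26.4 and 37.1 CPM in ZNFX1 KO 1 to 3, against 44.6, 49.5 and 42.4 CPM in WT 1 to 3. Its groups did not overlap, and the log2 fold change was -0.52 (SE 0.18, adjusted p = 0.258 by edgeR's quasi-likelihood test). Across the 54 genes, 1 had all knockout libraries above and 5 had all below the wild-type libraries, against 9.39% and 10.8% of all genes tested.

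**Figure D5:**
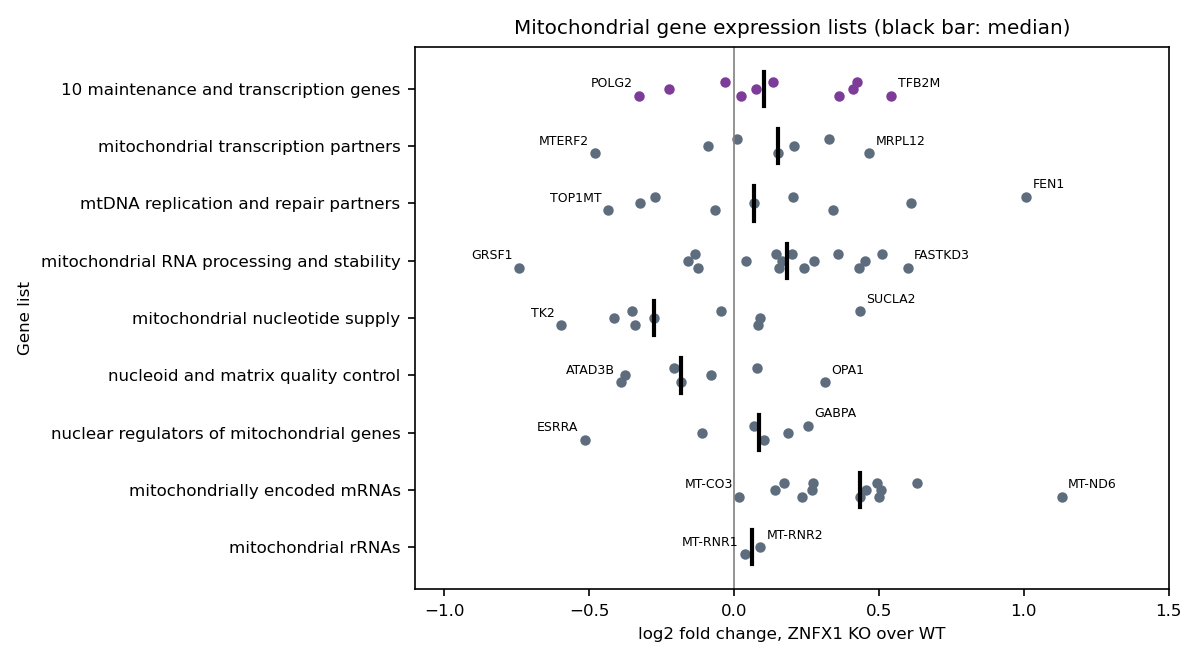
Log2 fold change, ZNFX1 KO over WT (horizontal axis), of each tested gene (points) in the 10 genes and the other lists (vertical axis), with the median as a black bar. The list medians lie between -0.28 (nucleotide supply) and 0.43 (mitochondrially encoded mRNAs).

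Among the products of the machinery, the mRNAs of the mitochondrial genome depended on single libraries, most of all on KO 2. The 13 mitochondrially encoded mRNAs summed to 3629, 6795 and 4185 CPM in ZNFX1 KO 1 to 3, against 3657, 3280 and 5631 CPM in WT 1 to 3. KO 2 was highest and WT 3 next, while KO 1 was level with WT 1. All 13 had positive log2 fold changes with a median of 0.43, between 0.02 for MT-CO3 and 1.13 for MT-ND6, and none had groups that did not overlap. By edgeR's quasi-likelihood test 0 of the 13 were called, DESeq2's Wald test called 0, and 0 had an unadjusted p under 0.05. The shares over all genes tested were 0.727%, 4.09% and 15.1% in that order, and 20.2% had groups that did not overlap. Without KO 2, 3 of the 13 were positive and the median was -0.10, and with library totals in place of TMM 12 were positive. The median was 0.68 with 13 positive without WT 3, 0.23 with 11 positive without WT 2, and 0.32 with 12 positive without WT 1. Of the rRNAs, MT-RNR1 differed by 0.04 (SE 0.32) and MT-RNR2 by 0.09 (SE 0.24) on the log2 scale, also with KO 2 highest. KO 2 was the library with the most mitochondrial RNA and, by gene rows, the least POLRMT, POLG and POLG2 RNA. With transcript rows joined and no TMM scaling, POLG was at 44.4 CPM in KO 2 and 44.3 CPM in WT 2. The TMM factors of the gene rows were 0.958 for KO 2 and 1.04 for WT 2, so scaling would set KO 2 higher.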

How the data were processed

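RNA of 3 ZNFX1 KO and 3 WT libraries of TYK-nu was compared, with groups taken from the titles. The deposited files hold estimated counts of fragments that the authors made with Salmon, per the labels, and TPM values, which the authors' files scale by length and by library. The submitters' processing notes also name FastQC, Trimmomatic and DESeq2. Their genome build and any use of strand in counting were not given in the sources used here. Gene names came from a gene table, and coordinates and transcript classes from GENCODE 29 (GRCh38). Of 197169 rows per file, 134909 are transcript rows with 9.93% to 10.7% of the fragments. They were left out of the tests, and 103521 of them were joined to genes as an alternative. CPM of transcript rows and joined rows is relative to the joined fragments of a library, without TMM scaling. The number of unused columns with sample values was 0.

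Estimated counts were rounded, kept by filterByExpr, scaled by TMM (factors 0.958 to 1.04) and tested with edgeR 4.0.16 (glmQLFit and glmQLFTest, two-sided, R 4.3.3) with genotype as the single term. Adjustment was by Benjamini-Hochberg over all 14166 genes, with a threshold of 0.05. Standard errors are the log2 fold change over the square root of F. The prior count of log2-CPM was 2 and the common biological coefficient of variation 0.262. No library was a duplicate, since pairs differed beyond counting noise (chi-square over its degrees of freedom of 30.4 or more). The test was checked on simulated data.

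The 10 genes and the lists of partners, interferon-stimulated genes, cell division genes and cell type markers were chosen with earlier results of these data known. Named are the 10 genes, ZNFX1, the highest and lowest gene of each partner list, and the 5 genes most like TFAM and PNPT1 (average log2-CPM of at least 4). Mitochondrially encoded RNAs, markers, FANCI, NRF1 and the untested PPARGC1A were added after their values were seen. Of the marker lists, 4 of 12 epithelial and ovarian, 5 of 7 mesenchymal, 7 of 7 endothelial and 2 of 7 leukocyte genes were tested, and edgeR and DESeq2 1.42.0 called 0 in each, with 1, 2, 1 and 1 at an unadjusted p under 0.05 in edgeR. Their median log2 fold changes were -0.29, -0.04, 0.17 and 0.54. Of all genes tested, edgeR called 0.727% and DESeq2 4.09%, and 15.1% had an unadjusted p under 0.05 in edgeR. Alternatives tried were library totals, DESeq2 size factors, no filter beyond 1 read, 1 CPM in 3 libraries, the DESeq2 Wald test, limma-voom (limma 3.58.1), limma on log2(TPM + 1) or log2(TPM + 0.1), an offset for effective length, a replicate block, leaving out mitochondrial and small structured RNAs, joined transcript rows and leaving out each library. Promoter sequences are RefSeq's. Floors are 3 counts and cover counting error only.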

Additional observations from a re-analysis of the deposited data

How the results depend on the processing

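Over 18 alternatives, 0 of the 10 genes were called except without WT 3, where TFAM and SSBP1 were called (0 to 2 over the libraries left out). Of the 54 partners, 0 to 3 were called over the libraries left out, and 0 under the other settings. The 3 were FEN1, FASTKD5 and TK2 without WT 3, where 9.02% of all genes tested were called. For the 13 mitochondrially encoded mRNAs the count was 0 throughout, although leaving out mitochondrial genes gave no value for them. The median log2 fold change of the 10 genes was between 0.10 and 0.23 when single libraries were left out, and 0.04 with library totals in place of TMM, against 0.11 as reported.

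The number of genes called among all tested was far less stable than that. Against 103 genes, it was 602 with no filter, 579 with DESeq2's Wald test, 187 with transcript rows joined and 22 with limma on log2(TPM + 1). Leaving out single libraries gave 2 to 1315 genes: 2 without KO 2, 7 without KO 3, 110 without KO 1, 24 without WT 1, 57 without WT 2 and 1315 without WT 3. Deviations from group means had correlations of 0.13, -0.04 and 0.01 between same-numbered replicates, and of -0.10 to 0.09 between the others. These cannot settle whether the samples were paired, since deviations in a group of 3 libraries sum to 0. The replicate block called 14 genes and 0 of the 10.

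Signs turned for POLRMT and POLG, both near 0; the cause was not tested. POLRMT was 0.0010 with no filter and between -0.16 and 0.17 with libraries left out. POLG was -0.031 with library totals, -0.031 with limma-voom and -0.029 with the replicate block, and between -0.12 and 0.29 with libraries left out. The other 8 genes kept their sign in all 18.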

Other observations

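POLG also has a transcript row with a large share of its fragments. POLG-208, annotated as a target of nonsense-mediated decay, had 17.4, 21.5 and 13.3 CPM in ZNFX1 KO 1 to 3, against 10.8, 10.8 and 15.7 CPM in WT 1 to 3. It was highest in KO 2, the library in which the POLG gene row was lowest, and it made up 48.4% of the gene there, against 18.4% to 29.4% in the other libraries of both groups. With all rows joined, POLG had 59.4, 44.4 and 58.3 CPM in ZNFX1 KO 1 to 3, against 58.9, 44.3 and 53.3 CPM in WT 1 to 3. KO 2 was thus near WT 2 before TMM scaling, which the CPM of transcript rows and joined rows leaves out.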
